A study of Mus musculus with 31 samples.

Results

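Group 2 innate lymphoid cells (ILC2) of the thymus were compared with ILC2 of the lung in mice of 1 genotype. The mice were C57BL/6 and carried plck-Cre with floxed alleles of E2A (gene Tcf3) and HEB (gene Tcf12), written plck-Cre; E2Af/fHEBf/f and titled dKO. The members were 4 of the 31 RNA-seq libraries of the series, thymus dKO replicates 1 and 3 and lung dKO replicates 1 and 3, chosen by tissue and genotype and joined gene by gene. Both tissues share the Cre transgene and both floxed genes, and no ILC2 library of an unmodified mouse is among the 31. The comparison therefore lies within this genotype, between tissues whose counts come from separate count tables. The plck promoter, the proximal promoter of Lck, is active in developing T cells and drives Cre there. The labels give neither age nor the surface markers used to isolate the cells, nor whether the 2 libraries of a tissue came from separate mice, so each p-value measures only the spread between these libraries. Lung ILC2 of 3 libraries titled Id1, also C57BL/6, were read beside them as values and entered 2 alternative fits. In these fits they formed a group of their own and were not part of the lung dKO side. They were grouped by title, since their genotype labels read plck-Id1, plck-Id2 and plck-Id3. The other 24 libraries are thymocyte cultures of several culture days. Their genotype labels read R26-CreERT2 and R26-stop-tdTomato, with or without E2Af/fHEBf/f, so they carry another Cre than the dKO mice.

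ILC2 are tissue-resident lymphocytes without an antigen receptor that respond to epithelial alarmins such as IL-33 with type 2 cytokines and with tissue-repair factors such as amphiregulin. They depend on GATA3, RORα and IL-7 receptor signals, and in the thymus they can arise from early T cell precursors. E2A and HEB are basic helix-loop-helix factors, the E proteins, that drive T cell gene programmes, and Id proteins bind E proteins and block them.

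The lung libraries stood apart from the thymus libraries in composition. Counts totalled 5669876 and 4818443 in thymus and 5627406 and 3695522 in lung, of which 32.9% and 37.2%, and 49.9% and 29.2%, fell on the 19154 protein-coding genes kept for the comparison. Mitochondrial rRNA took 54.8% and 52.0% of thymus counts and 30.3% and 12.1% of lung counts. Genes of the Gm10800 family, which hold satellite-like repeats, took 0.295% and 1.09% in thymus, 7.32% in lung replicate 1 and 48.9% in lung replicate 3. Olfactory and vomeronasal receptor genes, used as a gauge of reads that do not come from expressed genes, had counts at 101 and 262 of 1391 genes in thymus and at 960 and 1205 in lung. Their density was 0.0538 and 0.109 CPM (counts scaled to the total of kept genes) per kilobase of exon in thymus, 1.10 and 4.84 in dKO lung and 0.170 to 0.343 in Id1 lung. A gene's background below is this density times its exon length. Across tested genes, log2 values of the 2 thymus libraries correlated with r = 0.933 and those of the 2 lung libraries with r = 0.736, as a description of library likeness. Tissue and count table are the same split of the libraries, so they cannot be told apart.

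**Figure D1:**
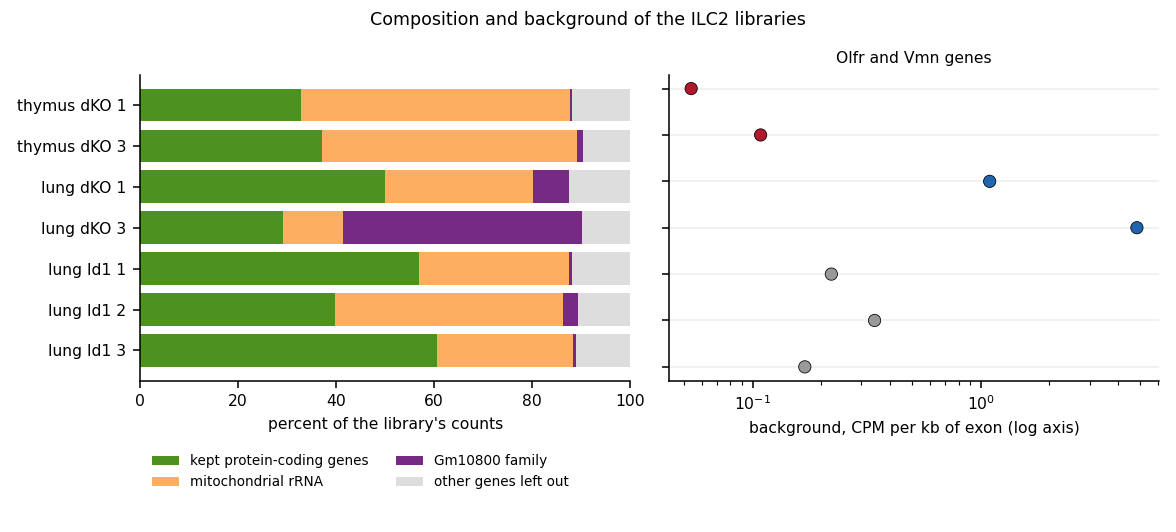
Left, percent of each library's counts (x axis) in kept protein-coding genes, mitochondrial rRNA, the Gm10800 family and other genes left out, 1 bar per library. Right, background in CPM per kilobase of exon over olfactory and vomeronasal receptor genes (log axis), 1 point per library: lung dKO replicate 3 is highest at 4.84 and thymus dKO replicate 1 lowest at 0.0538.

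Of the 2 targeted genes, Tcf12 stood above its background in both tissues and Tcf3 in thymus only. Neither passed the test between the tissues. Tcf12 (chromosome 9, 71842688 to 72111871, minus strand, mm10) was at 449 and 485 CPM in thymus and 245 and 380 in lung, a log2 difference, thymus minus lung, of 0.58 ± 0.32 (standard error; edgeR adjusted p = 0.275). Tcf3 (chromosome 10, 80409514 to 80433647, minus strand) was at 21.7 and 8.63 CPM in thymus and 7.13 and 8.50 in lung. Its background in lung replicates 1 and 3 came to 4.42 and 19.6 CPM, so its presence in lung is not shown. The log2 difference of Tcf3 was 0.96 ± 1.02 (edgeR adjusted p = 0.611). Gene counts include exons outside the floxed stretches, so they do not measure deletion. Among the Id genes, Id2 was at 26.1 and 87.4 CPM in thymus and 110 and 48.2 in lung, overlapping groups with adjusted p = 0.711. Id3 had no counts in any of the 4 libraries.

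The labelled cell type was checked on ILC2 genes. Gata3, the factor that ILC2 require, was at 240 and 378 CPM in thymus and 876 and 465 in lung (log2 difference -1.12 ± 0.39, adjusted p = 0.0917). Rora was at 467 and 718 CPM in thymus and 1215 and 1284 in lung (-1.08 ± 0.32, adjusted p = 0.0547). For both genes every lung library was above every thymus library, and neither passed. Il1rl1, Il7r, Il2ra, Icos and Il17rb were at 278 CPM or more in all 4 libraries, whereas Il13, Il9 and Ptgdr2 reached at most 1.89, 4.88 and 12.3 CPM in any of them. Il5, Areg and Klrg1, further ILC2 genes, were at 0 to 0.54, 0.543 to 1.62 and 3.8 to 7.55 CPM in thymus. Of the T cell co-receptor genes, Cd4 reached at most 6.47 CPM, Cd8a 13.2 and Cd8b1 6.77. Other T lineage genes were not low in thymus, with Cd3g at 171.5 and 122.5 CPM, Tcf7 at 1772 and 1145 and Rag1 at 153.6 and 151.6.

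Between the tissues, 410 of 11062 tested genes were higher in thymus (3.71%) and 1141 were higher in lung (10.3%) at an edgeR false discovery rate (adjusted p) under 0.05. The median log2 difference of all tested genes was -0.15. The 2 directions differed in how their calls sat against the background. All 410 genes higher in thymus lay at 5 or more times the background in both thymus libraries. Of the 1141 genes higher in lung 213 did so in both lung libraries, and the other 928 did not. This bar was lower in thymus, at 0.0538 and 0.109 CPM per kilobase against 1.10 and 4.84 in lung. The 2 shares are therefore not like for like, and the thymus share says nothing of background in the lung values. Genes whose exons overlap those of another gene were 240 of the 410 and 307 of the 1141. They were called higher in thymus at 5.80% of 4138 such genes and 2.46% of 6924 genes without overlap, and higher in lung at 7.42% and 12%. A fit restricted to genes at 5 or more times the background in 1 tissue called 264 of 9119 genes higher in thymus (2.90%). It called 285 higher in lung (3.13%). With overlapping genes left out as well, it called 104 of 5542 (1.88%) and 170 (3.07%). A gene could enter through the thymus background alone, so these lung calls are not all clear of the lung background. Traf1 stayed called in the first of these, at 49.1 CPM in lung replicate 3 against a background of 42.7. With the background of each gene taken off its counts, a setting chosen after seeing the data, 19 and 44 genes were called. The median of all tested genes was 0.24 there. In this setting 4 of 20 cell division genes, 0 of 22 DNA replication genes and 0 of 18 recombination and pre-TCR genes were higher in thymus. Higher in lung were 4 of 17 immediate early genes, 2 of 11 type 2 cytokines and effectors and 2 of 8 NF-kB response genes. So were 1 of 20 ILC2 surface receptors and 2 of 8 neuropeptide and adrenergic genes.

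Without lung dKO replicate 3, edgeR called 0 genes in either direction, with 2994 genes at an unadjusted p under 0.05, and all 410 and all 1141 genes kept their direction. The 2 directions numbered 279 and 472 without lung replicate 1, 97 and 123 without thymus replicate 1 and 164 and 389 without thymus replicate 3. With lung replicate 3 left out and the 3 Id1 lung libraries in the fit, here called the second fit, 481 of 13792 genes were higher in thymus (3.49%) and 600 higher in lung (4.35%). Of the 410 genes 281 were called again there, and of the 1141 genes 378. Without lung replicate 3 alone, the count of every gene list below is likewise 0. Of the called genes named below, Klrd1, Gzma, Oasl2, Ifih1, Il5, Tph1, Mrc1, Npm1, Saa4, Fam90a1a, Klra4, Klra9, Snhg11, Unc5c and Fancd2os did not pass in the second fit (adjusted p from 0.0526 to 0.274), and Mcm6, Med10 and Zfp784 did not either. The log2 differences of the second fit compare thymus with lung dKO replicate 1 alone, and the Id1 libraries add to the spread. For Areg the difference was -10.04 there, and -10.02 with lung replicate 3 merely left out. The 410 and 1141 genes were called from fits that share these libraries, so their kept direction is no independent check. In bulk libraries, fewer cells of a type and less RNA per cell cannot be told apart.

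**Figure D2:**
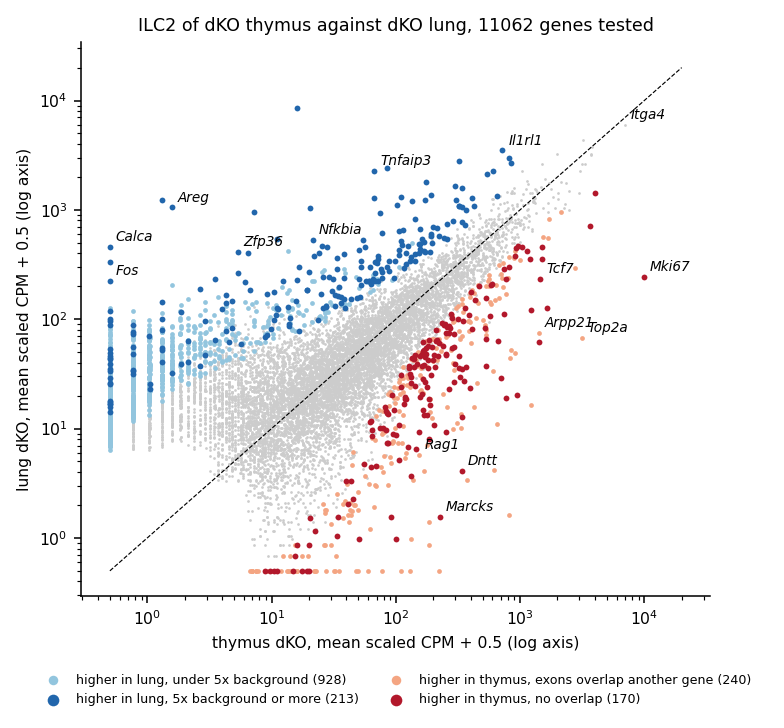
Mean scaled CPM + 0.5 in thymus dKO (x, log axis) and lung dKO (y, log axis), 1 point per tested gene (n = 2 libraries per tissue). Coloured points passed the edgeR threshold: 410 lie below the diagonal, 240 of them with exons that overlap another gene, and 1141 above it, 928 of them under 5 times the background in at least 1 lung library.

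Called genes with many CPM, a scale not corrected for gene length, were Mki67, Smc4, Npm1, Top2a and Cdk6 on the thymus side and Il1rl1, Zfp36l2, Il7r, Rgs2 and Tnfaip3 on the lung side, singled out after their values were seen. Smc4, a condensin subunit that compacts chromosomes, was at 5082 and 2913 CPM in thymus and 1522 and 1356 in lung. Cdk6, a kinase that drives entry into the cell cycle, was at 2548 and 3019 CPM in thymus and 288 and 296 in lung, 3.25 ± 0.31 higher on the log2 scale (adjusted p = 0.00148). Both genes separated the tissues without overlap. Rgs2, a regulator of G protein signalling, was at 98.8 and 69.6 CPM in thymus and 2327 and 2519 in lung (-4.85 ± 0.36, adjusted p = 0.000542), and at 992 to 1536 in the Id1 lung libraries. Zfp36l2, which binds AU-rich mRNA and promotes its decay, was at 245 and 400 CPM in thymus and 2800 and 2753 in lung (-3.10 ± 0.35, adjusted p = 0.00309).

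The thymus cells carried far more transcripts of cell division genes. Mki67, the proliferation marker, was at 12750 and 7088 CPM in thymus and 112 and 372 in lung. The lower thymus library was above both lung libraries, and the Id1 lung libraries were at 194 to 259. Its log2 difference was 5.37 ± 0.66 (edgeR adjusted p = 0.00404) and 6.5 without lung replicate 3 and with the Id1 libraries. Of 20 cell division genes tested, 12 were higher in thymus and 0 in lung, against 3.71% and 10.3% of all genes, with a median log2 difference of 4.20. In the second fit, 19 of the 20 were higher in thymus, and the summed list was at 23484 and 15651 CPM in thymus, 317 and 1178 in dKO lung and 496 to 646 in Id1 lung. Over genes with no overlapping exons, 9 of 13 members were higher in thymus. With the bar of 5 or more times the background added, 7 of 13 were.

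Members acting from S phase to mitosis were among them. Top2a, which untangles replicated DNA, was at 3274 and 3034 CPM in thymus and 32.4 and 102 in lung (5.59 ± 0.57, adjusted p = 0.00205). Ccna2, the cyclin of S phase and G2, was at 669 and 571 CPM in thymus and 0.713 and 6.61 in lung (7.82 ± 0.72, adjusted p = 0.00114). Ccnb2, a mitotic cyclin, was at 201 and 171 CPM in thymus and 1.78 and 13.2 in lung (4.84 ± 0.81, adjusted p = 0.0157). In each of these the thymus libraries lay apart from both lung libraries by 10-fold or more. Exons of Top2a and Ccna2, and of Nusap1 and Ube2c below, overlap those of another gene. Ccna2 in lung was under its background of 4.47 and 19.8 CPM. Of the spindle genes, Kif11, the motor that separates spindle poles, was at 836 and 691 CPM against 3.92 and 33.1, and Cenpe, a kinetochore motor, at 2105 and 1199 against 60.2 and 193. Nusap1, Tpx2, Bub1, Cenpf, Kif20a and Ube2c passed as well. Ccnb1, Cdk1, Aurka, Aurkb, Bub1b, Birc5, Plk1 and Cdc20 did not, with log2 differences of 1.80 to 4.85 and adjusted p from 0.0501 to 0.130.

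**Figure D3:**
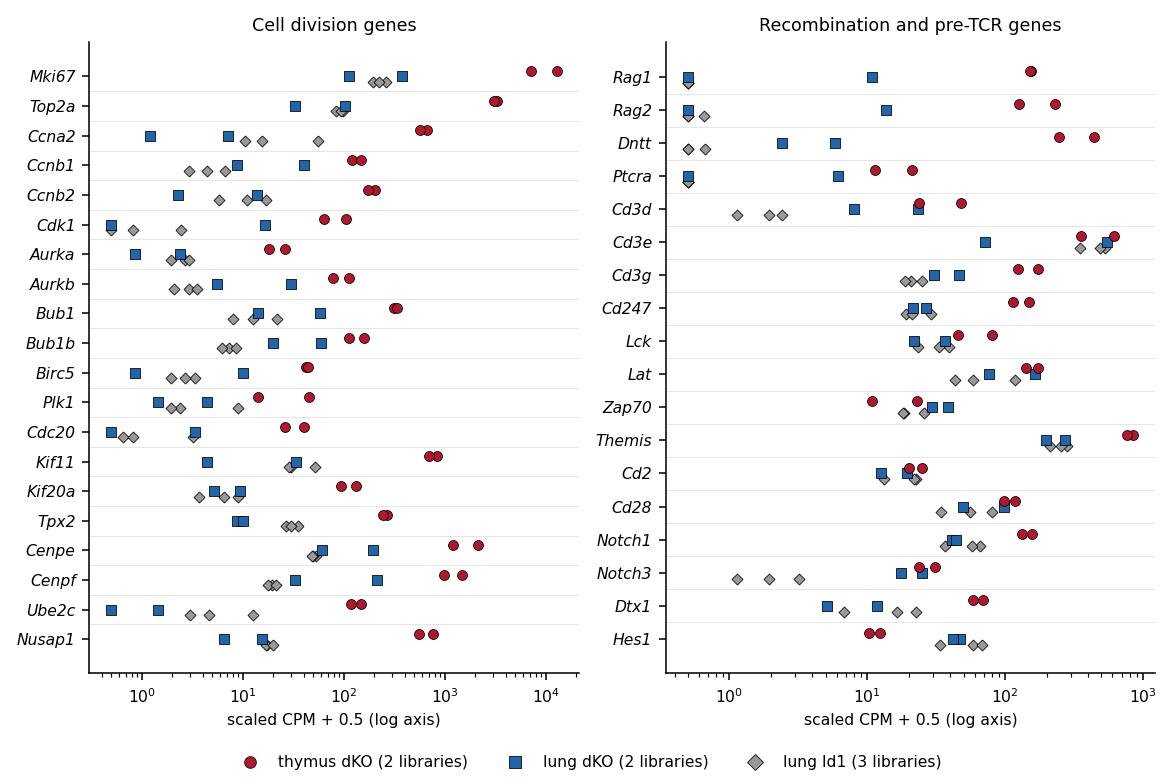
Scaled CPM + 0.5 (x, log axis) of cell division genes and of tested recombination and pre-TCR genes, 1 point per library. Circles are thymus dKO, squares lung dKO and diamonds lung Id1: for Mki67 the circles sit at 7088 and 12750 and the squares at 112 and 372, and for Rag1 the circles sit at 152 and 154 and the squares at 0 and 10.4.

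The promoters of 2 called genes are shown because cell cycle genes are known to share 2 short elements, the cell cycle genes homology region (letters TTTGAA) and the CCAAT box. The 200 bases before the start are from RefSeq (GRCm38.p6), on the gene's strand, with matches on either strand in capitals. For Mki67 this is chr7:135716380-135716579 and for Ccnb2 chr9:70421555-70421754, both on the minus strand.
Mki67: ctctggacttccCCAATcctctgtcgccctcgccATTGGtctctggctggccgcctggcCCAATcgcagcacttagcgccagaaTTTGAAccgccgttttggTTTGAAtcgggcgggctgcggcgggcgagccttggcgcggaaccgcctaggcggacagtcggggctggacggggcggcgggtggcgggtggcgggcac
Ccnb2: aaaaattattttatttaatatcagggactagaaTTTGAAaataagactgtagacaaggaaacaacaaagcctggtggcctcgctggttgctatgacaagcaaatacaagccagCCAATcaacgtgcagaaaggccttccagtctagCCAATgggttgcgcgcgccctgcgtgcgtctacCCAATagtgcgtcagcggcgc
Mki67 holds TTTGAA at 116 and 98 bases before its start, and the CCAAT letters, or ATTGG on the other strand, at 188, 166 and 141. Ccnb2 holds TTTGAA at 167 and CCAAT at 87, 54 and 21. Of the 16 listed cell division genes in the promoter table, 7 hold TTTGAA or TTCAAA in this window (43.8%) and 14 hold CCAAT or ATTGG (87.5%), against 14.4% and 32.7% of all 27025 genes. The 2 motifs do not overlap here, and a match describes the sequence alone.

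DNA replication genes were higher in thymus too, with 13 of 22 tested genes called there and 0 in lung, and 15 and 0 in the second fit. Over all genes of the reported fit, 3.71% were higher in thymus and 10.3% in lung. The list's median log2 difference was 2.63. Over genes at 5 or more times the background with no overlapping exons, 5 of 14 members were higher in thymus. Pcna, the sliding clamp of DNA polymerase, was at 403 and 411 CPM in thymus and 97.0 and 63.3 in lung (2.33 ± 0.34, adjusted p = 0.00981). Rrm2, the ribonucleotide reductase subunit made in S phase, was at 304 and 281 CPM against 29.2 and 23.6 (3.45 ± 0.37, adjusted p = 0.00222). For both genes the tissues did not overlap. Mcm5, Mcm6, Mcm7, Cdc45 and Gins2, parts of the replicative helicase, passed, and Mcm2, Mcm3 and Mcm4 did not (log2 differences of 1.29 to 2.69, adjusted p from 0.0632 to 0.192). Tk1 was at 23.3 and 25.4 CPM in thymus and 14.3 and 52.9 in lung, with overlapping libraries.

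Of 18 tested genes of antigen receptor recombination and pre-TCR signalling, 8 were higher in thymus (3.71% over all genes) and 0 in lung. Dntt, the terminal transferase that adds bases at V(D)J junctions (chromosome 19, 41029275 to 41059525), was at 441 and 244 CPM in thymus, 5.35 and 1.89 in dKO lung and at most 0.160 in Id1 lung. The background in dKO lung was 2.51 and 11.1 CPM, and the log2 difference was 6.36 ± 0.58 (adjusted p = 0.00112). Rag2, the partner of Rag1 in the recombinase, was at 230 and 126 CPM in thymus and 0 and 13.2 in lung, where lung replicate 3 had a background of 16.6. Rag1 was at 154 and 152 CPM against 0 and 10.4, with a background of 32.0 in lung replicate 3. Rag2 passed at 5.06 ± 1.24 (adjusted p = 0.0387) and Rag1 at 5.21 ± 1.21 (adjusted p = 0.0359), and both have exons that overlap another gene.

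The list's median log2 difference was 1.47, and 8 of its genes were higher in thymus and 1 in lung in the second fit. Over genes at 5 or more times the background 5 of 18 were higher in thymus, over genes with no overlapping exons 3 of 9, and under both restrictions 1 of 9. Themis, a regulator of T cell receptor signalling in thymocytes, was at 847 and 761 CPM against 273 and 198 (1.77 ± 0.31, adjusted p = 0.0178). Notch1, the receptor that commits precursors to the T lineage, was at 157 and 133 CPM against 41.0 and 43.5, and its target Dtx1 at 68.9 and 58.3 against 4.63 and 11.3. Cd3g and Cd247, signalling chains of the T cell receptor, passed, but Cd3e, at 352 and 621 CPM in thymus and 549 and 70.9 in lung, overlapped between tissues. Hes1, another Notch target, had 9.77 and 11.9 CPM in thymus and 46.3 and 41.6 in lung (-2.02 ± 0.77, adjusted p = 0.119). The members named here that passed each had both thymus libraries above both lung libraries.

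Markers of other T lineage cells were read beside these genes. Of 13 tested markers of CD4 CD8 double-positive thymocytes, 5 were higher in thymus (Rag1, Rag2, Themis, Arpp21 and Aqp11) and 0 in lung. Among all genes these shares were 3.71% and 10.3%. Cd4, Cd8a and Cd8b1 were at 0 to 6.47 CPM in thymus. Arpp21 was at 1657 and 1170 CPM in thymus and 57.7 and 91.7 in lung (4.26 ± 0.39, adjusted p = 0.00112). The list of mature T cell markers summed to 2859 and 2394 CPM in thymus and 1236 and 626 in lung, mostly through Tcf7 and Cd3e, and 2 of its 13 tested genes passed, Cd3g and Tcf7. In the second fit, 6 double-positive markers and 2 mature T cell markers were higher in thymus. Over genes with no overlapping exons 1 of 8 double-positive markers was. The part of other T lineage cells in the recombination genes was not tested.

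Of the factors that guide ILC2, 2 of 22 tested were higher in thymus and 3 in lung, with a median log2 difference of -0.58, beside 3.71% and 10.3% of all genes. In the second fit it was 2 and 5 of 23, beside 3.49% and 4.35%. Tcf7, the gene of TCF-1, which starts T cell and ILC development, was at 1772 and 1145 CPM in thymus and 332 and 138 in lung (2.62 ± 0.46, adjusted p = 0.0185). Runx1 was at 1033 and 979 CPM against 363 and 325 (1.55 ± 0.28, adjusted p = 0.0208). Higher in lung were Bhlhe40, a repressor that supports cytokine output in lymphocytes, at 5.97 and 11.3 CPM in thymus and 203 and 138 in lung (-4.29 ± 0.55, adjusted p = 0.00523), Pparg, a lipid-sensing nuclear receptor, at 29.3 and 57.7 against 198 and 110, and Nfkb1 at 293 and 531 against 1433 and 1142. All 5 separated the tissues without overlap. Bcl11b, Tox, Maf, Ahr and Stat5b had absolute log2 differences of 0.49 or less and did not pass, and Sox4, a factor of lymphoid precursors from another list, was at 47.2 and 27.5 CPM in thymus and 1.07 and 0.945 in lung (5.10 ± 1.09, adjusted p = 0.0311).

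Of 21 tested receptors of ILC2, 5 were higher in lung and 0 in thymus (median log2 difference -0.79), beside 10.3% and 3.71% of all genes. In the second fit it was 5 and 0 of 22, beside 4.35% and 3.49%. Il1rl1, the IL-33 receptor ST2, was at 444 and 1000 CPM in thymus, 4050 and 2948 in dKO lung and 3114 to 3514 in Id1 lung (-2.28 ± 0.43, adjusted p = 0.0240). Il7r was at 696 and 993 CPM against 3129 and 2201 (-1.66 ± 0.34, adjusted p = 0.0283). In both receptors the groups lay apart. Il18rap, a subunit of the IL-18 receptor, Cd44, the hyaluronan receptor, and Tnfrsf18 (GITR) also passed, with log2 differences of -4.14, -4.08 and -3.33. Cd44 was under 5 times the background in lung replicate 3, at 117 CPM against 32.8. Il2ra, the IL-2 receptor alpha chain, was at 2509 and 2484 CPM in thymus and 1394 and 610 in lung (1.31 ± 0.41, adjusted p = 0.0643). Il17rb, at 403 and 638 CPM against 564 and 549, and Icos, at 278 and 405 against 750 and 336, overlapped between tissues, and Klrg1 was at 3.8 and 7.55 CPM against 36.4 and 31.2 (-2.56 ± 0.92, adjusted p = 0.101).

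Areg and Calca stood far above the background in lung and at 0 to 3 counts per library in thymus. Areg, the gene of amphiregulin (chromosome 5, 91139599 to 91148432), was at 0.543 and 1.62 CPM in thymus, from 4 counts in all, and at 1193 and 910 in dKO lung (-9.84 ± 0.53, adjusted p = 0.000212). Calca, which encodes calcitonin and the neuropeptide CGRP (chromosome 7, 114631478 to 114636357), had 0 counts in both thymus libraries and 395 and 513 CPM in dKO lung. Taking 3 counts over the 2 thymus libraries as the limit that a count of 0 allows, Calca was at least 526-fold higher in lung (adjusted p = 0.000367). Both genes were lower in Id1 lung, at 17.6 to 35.0 CPM for Areg and 29.9 to 40.9 for Calca, values given without a test. The background of Areg in lung was 1.33 and 5.88 CPM and that of Calca 1.84 and 8.15, so all dKO lung values lay above it by more than 50-fold.

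Of 12 tested type 2 cytokines and effectors, 7 were higher in lung and 0 in thymus, with a median log2 difference of -4.18, and 8 were higher in lung in the second fit. Il5, the eosinophil growth factor, was at 0 and 0.54 CPM in thymus and 7.13 and 61.4 in lung (adjusted p = 0.0397, and 0.117 in the second fit). Csf2 (GM-CSF) was at 1.09 and 0 CPM against 27.1 and 22.7, and Tnfsf11 (RANKL) at 5.43 and 15.1 against 92 and 124. Il4 was at 21.7 and 34.5 CPM in thymus and 22.5 and 6.61 in lung, with overlapping libraries, and Il13 had too few counts to test. Arg1, the arginase of ILC2, was at 11.9 and 12.4 CPM in thymus, 111 and 33.1 in dKO lung and 190 to 464 in Id1 lung (-2.57 ± 0.78, adjusted p = 0.0601). The 7 calls stand beside 10.3% of all genes higher in lung, with 3.71% higher in thymus. Of the 7 called genes, Il5, Il6 and Tph1 were under 5 times the background in at least 1 lung library.

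**Figure D4:**
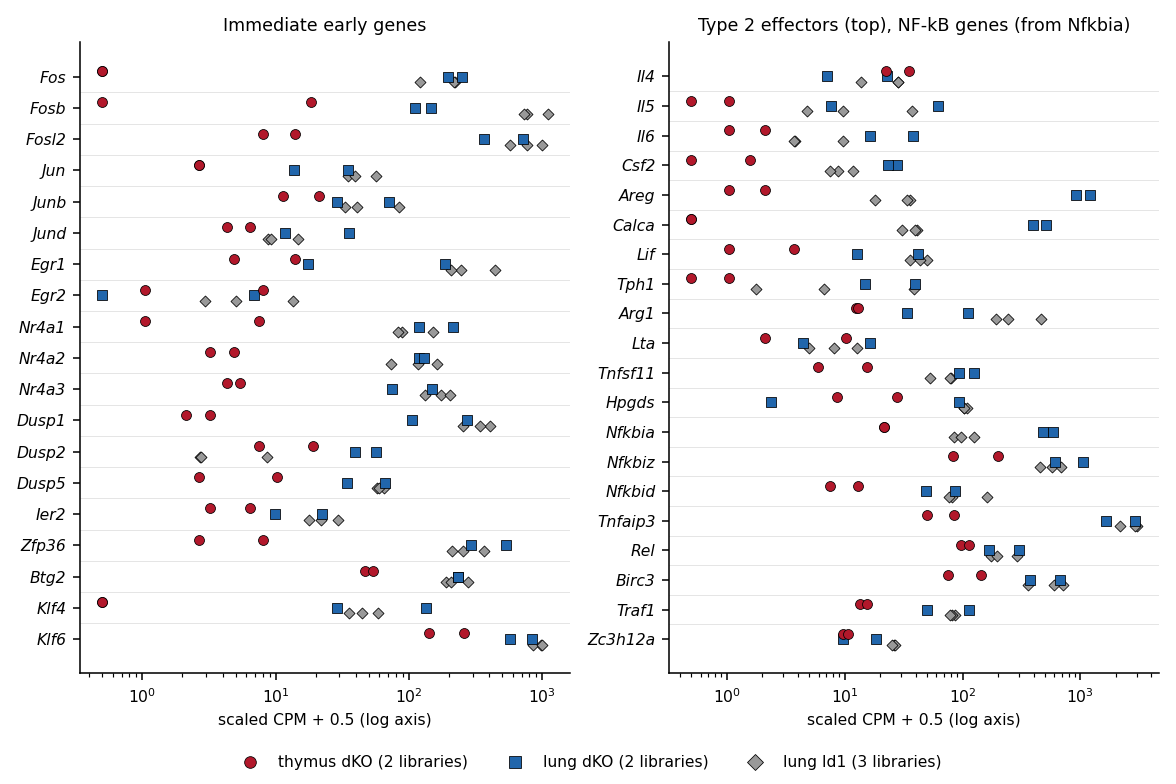
Scaled CPM + 0.5 (x, log axis) of tested immediate early genes and of tested type 2 effectors and NF-kB response genes, 1 point per library, with circles for thymus dKO, squares for lung dKO and diamonds for lung Id1. Fos, Calca and Klf4 have both circles at 0 counts, and for Areg the circles sit at 0.543 and 1.62 and the squares at 910 and 1193.

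Targets and feedback inhibitors of NF-kB, the pathway that IL-33 switches on, were higher in lung at 6 of 8 tested genes and in thymus at 0 (median log2 difference -2.54, and 7 in lung in the second fit). Tnfaip3, the gene of the inhibitor A20, was at 49.4 and 83.6 CPM in thymus and 2903 and 1660 in lung (-5.10 ± 0.45, adjusted p = 0.00111). Nfkbia, the gene of IκBα, was at 21.2 and 21 CPM against 484 and 580 (-4.65 ± 0.35, adjusted p = 0.000542), and at 84.1 to 124 in Id1 lung. Neither gene overlapped between the dKO tissues. Nfkbiz, Nfkbid, Birc3 and Traf1 passed with log2 differences from -2.78 to -2.25. In lung replicate 3, Nfkbid was at 48.2 CPM against a background of 11.4 and Traf1 at 49.1 against 42.7, both under 5 times it. The calls of this list stand beside 10.3% of all genes higher in lung and 3.71% in thymus. Rel was at 96.6 and 113 CPM against 299 and 168 (adjusted p = 0.0787).

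Immediate early genes are raised by many stimuli within minutes through pre-made factors. They were higher in lung at 10 of 19 tested genes and in thymus at 0, beside 10.3% and 3.71% of all genes. Their median log2 difference was -3.50. In the second fit, 14 were higher in lung. Fos, an AP-1 subunit (chromosome 12, 85473890 to 85477273), had 0 counts in both thymus libraries and was at 251 and 197 CPM in lung, at least 291-fold higher (adjusted p = 0.00096), and at 120 to 219 in Id1 lung. The same count table did hold Fos in the thymocyte cultures, with 15756 counts over 24 of 24 libraries. The stromal marker Col1a1 had 44437 counts over the same 24 libraries, and which cells gave the Fos counts was not tested. Dusp1, a phosphatase that shuts off MAP kinases, was at 1.63 and 2.70 CPM in thymus and 273 and 105 in lung (-6.41 ± 0.71, adjusted p = 0.00277). Zfp36, which promotes decay of cytokine mRNA, was at 2.17 and 7.55 CPM against 538 and 292 (-6.40 ± 0.62, adjusted p = 0.00153). Nr4a1, Nr4a2 and Nr4a3, nuclear receptors made after stimulation, were at 0.543 to 7.01 CPM in thymus and 73.7 to 213 in lung, with log2 differences from -5.44 to -4.67.

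Not every immediate early gene passed. Egr1 was at 4.34 and 13.5 CPM in thymus and 184 and 17 in lung (-3.50 ± 1.09, adjusted p = 0.0653), with lung replicate 3 below its background of 21.7. Junb was at 10.9 and 20.5 CPM against 28.5 and 69.9 (adjusted p = 0.226), and Egr2 was at 0 to 7.6 CPM in the 4 libraries. Klf4 and Nr4a3 passed but were under 5 times the background in lung replicate 3. The labels do not say whether cells of the 2 tissues were isolated in the same way, so isolation and tissue cannot be told apart for these genes.

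The promoters of Areg, Fos and Dusp1 are shown because these genes were at 0.543 to 2.70 CPM, or at 0 counts, in thymus and above 100 CPM in both lung libraries, and because the cAMP response element, bound by CREB and ATF factors, is known in them. Each is the 200 bases before the RefSeq start (GRCm38.p6), on the gene's strand, at chr5:91139399-91139598 (plus strand), chr12:85473690-85473889 (plus strand) and chr17:26508473-26508672 (minus strand). Capitals mark the core TGACGT and its reverse complement ACGTCA, which overlap by 4 letters in the full element TGACGTCA.
Areg: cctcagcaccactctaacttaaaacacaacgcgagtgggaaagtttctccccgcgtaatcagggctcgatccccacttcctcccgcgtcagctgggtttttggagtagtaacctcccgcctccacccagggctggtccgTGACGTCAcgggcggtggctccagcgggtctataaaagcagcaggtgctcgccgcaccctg
Fos: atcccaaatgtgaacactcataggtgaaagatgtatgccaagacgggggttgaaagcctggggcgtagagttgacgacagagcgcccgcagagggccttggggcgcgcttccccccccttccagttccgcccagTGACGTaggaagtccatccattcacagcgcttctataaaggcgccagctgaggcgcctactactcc
Dusp1: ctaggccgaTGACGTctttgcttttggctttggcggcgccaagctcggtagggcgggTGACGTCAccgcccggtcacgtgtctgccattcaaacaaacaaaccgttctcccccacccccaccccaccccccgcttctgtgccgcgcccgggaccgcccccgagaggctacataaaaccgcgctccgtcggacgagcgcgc
Areg holds the full element at 61 bases before its start and Dusp1 at 143, with a second core at 191, and Fos holds the core at 66. A core stands in this window in 7 of the 19 listed immediate early genes that the promoter table holds (36.8%) and in 6.62% of all genes, and the full element in 2 of the 19 (10.5%) and in 1.69% of all genes. Those 7 are Atf3, Btg2, Dusp1, Dusp5, Egr2, Fos and Nr4a3, of which Atf3 was too low to test and Dusp5 and Egr2 did not pass.

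Of 9 tested neuropeptide and related receptor genes 4 were higher in lung (10.3% over all genes) and 0 in thymus, Calca and 3 receptor genes, and 5 of 11 and 0 in the second fit. Vipr2, a receptor for vasoactive intestinal peptide, was at 21.2 and 26.4 CPM in thymus and 505 and 293 in lung (-4.07 ± 0.42, adjusted p = 0.00205). Ramp3, which shapes receptors of the calcitonin family, was at 2.17 and 0.54 CPM against 36.4 and 40.6, and Gpr65, a proton-sensing receptor, at 328 and 359 against 900 and 655. All 3 kept the tissues apart. Ramp1 and Calcrl, which form the CGRP receptor, were at 70.5 to 150 CPM in thymus and 31.2 to 163 in lung and did not pass.

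Of 16 tested genes of migration and retention 1 was higher in thymus and 4 in lung, beside 3.71% and 10.3% of all genes, and 1 and 3 in the second fit. Cd69, which holds lymphocytes in tissue, was at 34.7 and 64.7 CPM against 445 and 420 (-3.12 ± 0.39, adjusted p = 0.0046), and Cxcr6 at 73.8 and 123 against 347 and 332 (-1.79 ± 0.36, adjusted p = 0.0264). Ccr8 was also called higher in lung but stood under 5 times the background in at least 1 lung library. Ccr9, the receptor for a thymic and gut chemokine, was at 675 and 896 CPM in thymus and 1500 and 1404 in dKO lung (-0.89 ± 0.29, adjusted p = 0.0798), and at 323 to 487 in Id1 lung. Among integrins 1 of 22 tested genes passed (3 of 25 in the second fit), Itga1, at 20.7 and 86.9 CPM in lung against a background of 20.4 and 90.0, while Itga4 was at 6222 and 7818 CPM in thymus and 6400 and 5468 in lung (adjusted p = 0.698).

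**Figure D5:**
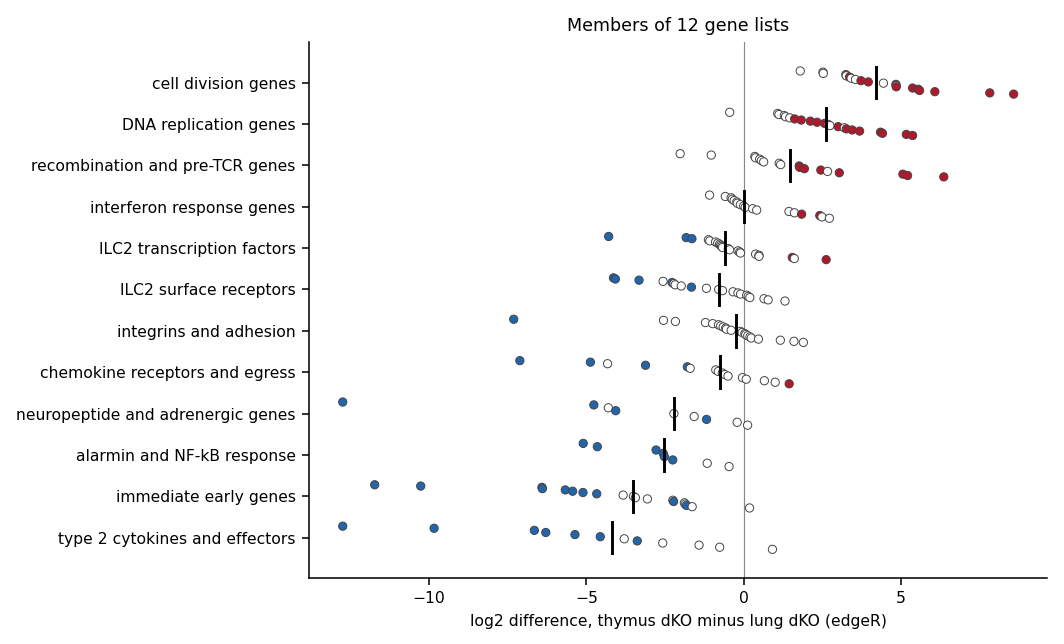
Log2 difference, thymus dKO minus lung dKO (x), of every tested member of 12 gene lists (n = 2 libraries per tissue). Filled points passed the edgeR threshold, open points did not, and the bar is the list's median: it lies at 4.20 for cell division genes and at -4.18 for type 2 cytokines and effectors, beside -0.15 for all tested genes.

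Granule and killer cell genes moved in both directions. Gzma was at 153 and 123 CPM in thymus and 54.2 and 34.0 in lung (1.63 ± 0.45, adjusted p = 0.0465), whereas Gzmb had 0 counts in thymus and was at 37.4 and 49.1 CPM in lung, at least 50.1-fold higher (adjusted p = 0.0185). Gzmb was counted in 24 of 24 cultures of the same table. Klrd1 (CD94) had 0 counts in thymus and was at 18.9 and 158 CPM in lung, and Ccl5 was at 0 and 0.54 against 37.4 and 57.6. In all, 5 of 9 tested genes of the list were higher in lung and 1 in thymus, and 2 and 0 in the second fit. Prf1 and Ifng had too few counts to test, and Ncr1 had at most 11.8 CPM. Among all genes 10.3% were higher in lung and 3.71% in thymus, for this list and the next. Interferon response genes showed 2 of 18 higher in thymus, Oasl2 at 306 and 203 CPM against 39.2 and 56.7 and Ifih1 at 230 and 117 against 54.5 and 41.6, and 0 of 19 in the second fit.

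Markers of cells that a lung sample could also hold were low and partly at the level of the background. Their calls below stand beside 10.3% of all genes higher in lung and 3.71% in thymus. The 18 epithelial and stromal markers summed to 137 and 134 CPM in thymus and 282 and 366 in lung, where their summed background was 70.9 and 313. Scgb1a1, a club cell secretory protein, stood above it at 93.7 and 46.3 CPM in lung and 0 and 1.08 in thymus, and 4 of 8 tested markers were higher in lung (2 in the second fit). Sftpc, the surfactant gene that defines alveolar type 2 cells, was at 0.356 and 0 CPM in lung, and Cldn5 and Inmt had 0 counts. The 18 macrophage, monocyte and neutrophil markers summed to 24.4 and 27.0 CPM in thymus and to 222 and 222 in lung, where their summed background was 37.1 and 164, with 2 of 8 tested higher in lung, Chil3 at 54.2 and 49.1 CPM and Mrc1 at 42.4 and 35.9 against a background of 6.98 and 30.8. Cd14 and Ear2 had 0 counts in lung. In the second fit, 1 of that list was higher in lung. Of 8 tested B cell markers, 5 dendritic cell markers, 5 mast cell or basophil markers and 1 eosinophil marker, 2, 1, 1 and 1 were higher in lung, each of these genes under 5 times the background in at least 1 lung library, and in the second fit 1, 0, 1 and 0 were. Cpa3, a mast cell protease, was higher in thymus, at 104 and 65.3 CPM against 10.7 and 16.1. In Areg, Calca, Fos, Tnfaip3 and the other lung genes above, the part of such cells was not tested.

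The 12 largest differences in each direction by size alone were set mostly by genes at 0 in 1 tissue. On the thymus side they were Fam166a, Pmch, Kdelr3, Pdcd2, Pus3, Raver1, Apex1, Samd11, Hddc3, Ilk, Ube2c and Fancd2os, at 13.0 to 280 CPM in thymus and 0 to 0.945 in lung. The exons of all 12 overlap those of another gene, as do 32.3% of kept genes. Pdcd2 and Pus3 were 2 of 4 genes with 0 counts in all 5 libraries of the lung table and 10 or more in all 26 of the thymus table, Med10 and Zfp784 being the others, and these 4 all have overlapping exons. No gene showed the reverse. How the 2 tables counted overlapping genes is not given in the sources used here, so for these genes table and tissue cannot be told apart.

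On the lung side the 12 were Calca, Lilr4b, Fos, Snhg11, Fam177a, Gvin1, Klrd1, Lilrb4a, Unc5c, Klf4, Lin28b and Otoa. Snhg11, Unc5c, Lin28b, Otoa, Lilrb4a and Klf4 were under 5 times the background in at least 1 lung library. Gvin1, an interferon-inducible GTPase gene, was at 0.543 and 1.08 CPM in thymus and 933 and 1514 in lung, and Lilr4b, an inhibitory receptor gene, had 0 counts in thymus and 388 and 280 CPM in lung. Both have near-identical copies that reads can be shared with, so their values are uncertain. Fam177a had 0 counts in thymus and 95.2 and 107 CPM in lung, and 7645 counts over 24 of 24 cultures.

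With overlapping genes and genes under 5 times the background set aside after their values were seen, the largest differences on the thymus side were Marcks, Syce2, Dntt, Spag5, Ccdc18, Kif11, E2f2, Mki67, Fbxo5, Gcsh, Neil3 and Tpx2. Marcks, a protein kinase C substrate at the membrane, was at 280 and 169 CPM in thymus and 2.14 and 0 in lung (7.22 ± 0.76, adjusted p = 0.00217). Neil3, a DNA glycosylase of dividing cells, was at 373 and 312 CPM against 3.92 and 20.8. Spag5, Kif11, Fbxo5, E2f2 and Tpx2 also act in the cell cycle. On the lung side they were Calca, Fos, Fam177a, Gvin1, Klrd1, Areg, Saa4, Gzmb, Scgb2b26, Klra9, Fam90a1a and Klra4. Saa4, Scgb2b26 and Fam90a1a were at 18.5 to 79.4 CPM in dKO lung and at most 0.321 in the 3 Id1 lung libraries.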

How the data were processed

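The deposited values are raw counts per Ensembl gene, 1 column per library, in a lung table and a thymus table. The build is mm10 and the named tool DESeq2, per the submitters' processing notes, with no versions. Which aligner and counter were used is not given in the sources used here. Total RNA was extracted with Trizol, per the labels' protocols. The tables were joined over 48881 gene IDs, of which 48664 matched GENCODE M21 and 217 did not. Of 20557 protein-coding genes on chromosomes 1 to 19, 1403 olfactory, vomeronasal and Gm10800-family genes were left out before scaling, and 19154 were kept. edgeR 4.0.16 (R 4.3.3) scaled the counts by TMM, kept 11062 genes with filterByExpr (minimum count 10) and ran the quasi-likelihood test on the 4 dKO libraries alone, with 2 residual degrees of freedom and a common biological coefficient of variation of 0.537. P-values were adjusted by Benjamini-Hochberg over all tested genes, with 0.05 as the threshold. The function was tested on simulated data. CPM are scaled by the TMM size of kept genes, 1842857 and 1853599 in thymus and 2805593 and 1058425 in lung, so 1 CPM is between 1 and 3 counts. Standard errors are the log2 difference over the square root of F.

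The libraries and gene lists were chosen with earlier results of these data known. Named genes follow a rule: the 12 largest called differences each way at 20 CPM or more in the higher tissue without overlap of the tissues and leaving out predicted genes, 15 set genes, and in each list up to 5 called genes each way, or up to 3 of the highest where none was called. Genes chosen after their values were seen are named as such, and a few genes are not reported here. Alternatives were other scalings and filters, DESeq2 1.42.0, every gene ID, the Id1 libraries, a replicate block, each library left out and, added after seeing the data, corrections for background and for overlapping exons. With 2 libraries against 2, an exact permutation test cannot go below p = 0.333, so none was used.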

Additional observations from a re-analysis of the deposited data

How the results depend on the processing

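Genes higher in thymus and higher in lung numbered 410 and 1141 in the reported fit. They numbered 401 and 1158 with DESeq2's size factors in edgeR, 404 and 1068 with totals of kept genes, 402 and 1105 with robust estimation, 526 and 938 with the 3 Id1 lung libraries and 559 and 1493 with DESeq2. The counts were 164 and 262 over genes above 20 CPM in 1 tissue, 787 and 2185 over every gene ID, and 411 and 741 with no filter on low counts. Leaving out 1 library gave 0 to 279 genes higher in thymus and 0 to 472 higher in lung, with 0 in both without lung replicate 3 (2994 genes at an unadjusted p under 0.05), and there the lone library is assumed to vary like the other tissue. Of alternatives added after seeing the data, taking the background per kilobase off each count left 19 and 44, genes at 5 or more times the background 264 and 285, genes with no overlapping exons 225 and 769, both restrictions together 104 and 170, and lung replicate 3 out with Id1 lung in 481 and 600. Fewer genes tested or fewer libraries are part of these settings, and the cause was not tested otherwise. Of the 127 named genes that passed, none changed direction in any setting that tested it. They were chosen as called in the reported fit, which shares libraries with every setting, so this is no independent check.

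The fit with a replicate block called 600 and 1341 genes. Deviations of same-numbered libraries from their tissue means correlated with r = 0.04. With 2 libraries per tissue both pairs give the same r, so it cannot show whether the numbers pair the samples. The reported fit did not use the numbers as a block. Among genes that did not pass, the Icos log2 difference, thymus minus lung, ran from -1.12 to 0.18 with 1 library left out, reversed without lung replicate 1. The Id2 log2 difference, thymus minus lung, ran from -1.55 to 0.40, reversed without lung replicate 1 and without thymus replicate 1 (0.26). The Il17rb log2 difference, thymus minus lung, ran from -0.40 to 0.34, reversed without lung replicate 1 (0.08) and without thymus replicate 1, and was 0.0561 with no filter and 0.0304 over every gene ID. At 1058425 scaled counts in lung replicate 3, genes under a few CPM, and those near the lung background, could not be told from 0.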

Other observations

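Metabolic and survival lists had these counts, beside 3.71% of all genes higher in thymus and 10.3% higher in lung. Of 16 tested glycolysis genes 1 was higher in thymus, Gapdh, at 138 and 178 CPM in thymus and 33.5 and 10.4 in lung (log2 difference 2.79 ± 0.59, edgeR adjusted p = 0.0304), while Ldha, which makes lactate, was at 232 and 234 CPM against 478 and 328 and did not pass (adjusted p = 0.132). Of 19 sterol and fatty acid synthesis genes 1 was higher in lung, Sc5d, of 12 lipid uptake and storage genes 2 were, Cd36 and Dgat1, and of 11 BCL2 family genes 2 were, Bcl2a1d and the pro-death member Bcl2l11. Of these 5 genes all but 1 were under 5 times the background in at least 1 lung library, and Cd36 was at 14.6 and 19.8 CPM in lung against a background of 3.93 and 17.4. Bcl2 itself was at 165 and 313 CPM in thymus and 329 and 262 in lung, with overlapping libraries. Myc, which drives growth and ribosome production, was at 398 and 237 CPM in thymus and 120 and 81.3 in lung (1.65 ± 0.39, edgeR adjusted p = 0.0362), the 1 called gene of 10 STAT5 targets. With lung replicate 3 out and the Id1 lung libraries in the fit, Myc did not pass (adjusted p = 0.113), nor did Cd36 and Dgat1 (0.0796 and 0.066). In that fit the genes higher in thymus and in lung were 1 and 2 for glycolysis, 2 and 1 for sterol synthesis, 1 and 0 for lipid uptake, 0 and 2 for the BCL2 family and 0 and 1 for STAT5 targets. Myb, a factor of immature haematopoietic cells, was at 683 and 449 CPM in thymus, 13.9 and 172 in dKO lung and 0.809 to 8.33 in Id1 lung (adjusted p = 0.0814 between the dKO tissues).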
